A study of Mus musculus with 12 samples.

Results

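The genes described here make sterols and fatty acids, or control their making, and are known targets or partners of the sterol regulatory element binding proteins (SREBPs). They are a list of 38 genes named for their place in the pathway. No threshold on a measured value was part of the rule, but the list was drawn up with earlier results of these data known. A probe set that the array annotation assigns to a single gene was available for 37 of them, out of 18193 genes on the array, and Acat2 was not analysed here. The arrays, one-colour Affymetrix mouse GeneChips, were hybridised with RNA of MC38 monolayers. MC38 is a tumor cell line from a mouse colon carcinoma. The aim of the comparison was to see how tumor cells respond to a MEK inhibitor outside the animal, early and late. There were 4 groups of 3 arrays, which the labels call biological replicates: DMSO for 24 h, 100 nM GDC-0623 for 24 h, DMSO for 72 h and 100 nM GDC-0623 for 72 h. GDC-0623 inhibits MEK, the kinase that activates ERK, and DMSO is its solvent. Every group came from the same cell line, seeded the day before the addition, so the p-values measure the spread between cultures of 1 line.

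Cells build cholesterol from acetyl-CoA through the mevalonate steps, which end in farnesyl diphosphate, and the sterol steps, which convert it to squalene, lanosterol and cholesterol. Fatty acids are built from the same acetyl-CoA by carboxylation and chain synthesis, and are then elongated and desaturated. SREBPs are made as membrane proteins that SCAP carries to the Golgi for cleavage when sterols are low, INSIG proteins hold SCAP back when sterols are high, and the released factor binds sterol regulatory elements together with NF-Y and Sp1. Cultured tumor cells that divide need both products for new membranes.

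Promoters are shown for 4 members because the results below differ between them: Hmgcs1 and Idi1 of the mevalonate steps, the SREBP inhibitor Insig1, and Fasn, which moved the other way at 24 h. The sequences are the 250 bases before the start site from RefSeq, build GRCm38.p6, each written 5′ to 3′ on the gene's own strand. Capitals mark the sterol element TCACNCCAC and the NF-Y motif CCAAT, which reads ATTGG where it lies on the other strand.
Hmgcs1, chr13:119690101-119690350, plus strand: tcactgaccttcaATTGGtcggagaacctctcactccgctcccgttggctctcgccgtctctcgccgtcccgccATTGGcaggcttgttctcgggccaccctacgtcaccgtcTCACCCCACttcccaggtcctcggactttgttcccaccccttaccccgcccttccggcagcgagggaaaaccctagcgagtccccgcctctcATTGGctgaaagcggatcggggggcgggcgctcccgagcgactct
Idi1, chr13:8885356-8885605, plus strand: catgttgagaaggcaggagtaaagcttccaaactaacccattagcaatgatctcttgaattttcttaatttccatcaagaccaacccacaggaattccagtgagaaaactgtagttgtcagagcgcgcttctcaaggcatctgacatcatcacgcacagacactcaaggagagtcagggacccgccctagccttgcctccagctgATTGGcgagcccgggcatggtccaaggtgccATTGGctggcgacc
Insig1, chr5:28071162-28071411, plus strand: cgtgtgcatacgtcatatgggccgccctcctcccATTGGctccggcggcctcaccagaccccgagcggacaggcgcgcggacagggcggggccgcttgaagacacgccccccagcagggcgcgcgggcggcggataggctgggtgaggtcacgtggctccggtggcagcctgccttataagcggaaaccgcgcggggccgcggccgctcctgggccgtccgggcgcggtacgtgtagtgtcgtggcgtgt
Fasn, chr11:120824548-120824797, minus strand: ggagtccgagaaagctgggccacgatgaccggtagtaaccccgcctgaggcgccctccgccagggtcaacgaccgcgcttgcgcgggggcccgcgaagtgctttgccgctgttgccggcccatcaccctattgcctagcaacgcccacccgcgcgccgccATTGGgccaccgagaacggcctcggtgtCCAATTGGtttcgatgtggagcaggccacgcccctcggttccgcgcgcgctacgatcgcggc

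The Hmgcs1 stretch held 1 sterol element, which began 137 bases before the start site, and 3 NF-Y motifs. The Idi1 and Insig1 stretches held 2 and 1 NF-Y motifs. The Fasn stretch held 3, of which a pair on opposite strands overlapped. Promoter windows of 300 bases, with 50 bases after the start site, were present for 31 of the 38 genes, as 41 windows in all. Fdps, Fdft1, Sqle, Fads1, Scd1, Scd2 and Stard4 had none in the table. On either strand, CCAAT was found in 26 windows, or 63.4%, against 38.2% of the 21263 windows of all protein-coding genes. The Sp1 motif GGGCGG was found in 70.7% of the windows of the listed genes and in 46.2% of all windows, the E-box CACGTG in 17.1% and 7.84%, and TCACNCCAC in 2.44% and 1.19%. A match is a run of letters and was not tested for binding.

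The transcripts that report ERK activity were checked first. Egr1, an immediate early gene, was lower under GDC-0623 by 4.90 ± 0.12 (SE) at 24 h and by 5.57 ± 0.43 at 72 h on the log2 scale, and Dusp6, a phosphatase of ERK, was 2.12 ± 0.18 and 1.49 ± 0.20 lower. Replicate 1 of GDC-0623 at 72 h stood apart from its group on the first principal component, at 77.4 on an axis with 58.6% of the variance, so the counts that use it were repeated without it. Of 5 epithelial markers, 3 stayed below a log2 value of 5, the range of background here, in all groups: Cdh1, Krt18 and Krt19. Epcam and Krt8 had group means between 4.90 and 5.62. Leukocyte and endothelial markers, including Ptprc and Pecam1 with group means up to 2.91 and 3.25, were at or near background, with 5.44 as the highest mean of any. Of the 5 fibroblast markers, whose group means ran from 3.60 to 13.4, Pdgfra, Col3a1 and Dcn were well above background in all groups. The rest of that list were Col1a1 and Lum, and none of the 5 stayed below 5 in all groups. Under GDC-0623, 2 of the 5 rose at 24 h and 4 at 72 h, against 13.3% and 13.8% of all genes. Without replicate 1 of GDC-0623 at 72 h, 4 rose at 72 h, against 11.5% of all genes. Dcn rose by 0.56 ± 0.16 at 24 h and 2.50 ± 0.20 at 72 h (adjusted p = 0.036 and 6.5e-05). The part of the fibroblast markers in the results on lipid genes was not tested. In bulk RNA, fewer cells with a transcript and less of it per cell cannot be told apart.

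Exposure to GDC-0623 for 24 h raised most genes of cholesterol synthesis, by up to 2.19-fold for Hmgcs1, while Fasn, the fatty acid synthase, fell. Of the 37 genes, 24 rose, 1 fell and 12 did not pass the test, against 13.3% of all 18193 genes higher and 8.23% lower. The median log2 difference was 0.40 for the 37 genes and −0.03 for all genes. After 72 h, 18 rose and 1 fell, against 13.8% and 12.4% of all genes, with medians of 0.25 and −0.03. Without replicate 1 of GDC-0623 at 72 h, 17 rose and none of the 37 fell, against 11.5% and 10% of all genes, with a median of 0.28. The rise of Ebp and the fall of Acacb were then lost, so that 6 of the 11 sterol genes rose and none of the fatty acid supply genes fell, and the other 72 h counts by step given below did not change. Rises and falls are calls at an adjusted p under 0.05 with limma over all 45037 probe sets. With dim probe sets left out, and likewise with a trended prior for the variance, Acly and Dhcr7 were also called higher and Acaca and Elovl6 lower at 24 h (adjusted p-values from 0.0102 to 0.0487), and Fdps, Acly and Srebf2 were called higher and Msmo1 lower at 72 h (from 0.013 to 0.0408).

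Time in culture was compared in the same way. In DMSO, 26 of the 37 genes rose from 24 h to 72 h and none fell, against 8.41% of all genes higher and 5.14% lower. The median change was 0.86, where the median over all genes was −0.02. In GDC-0623, 27 rose and none fell, against 5.79% and 3.11% of all genes, with a median of 0.69 and of −0.03 over all genes. Without replicate 1 of GDC-0623 at 72 h, 28 rose, with Fasn added, and 1 fell, Insig2, while the 10 sterol genes that rose were the same. The rises of Pmvk, Tm7sf2 and Srebf2 in GDC-0623 were lost without replicate 2 at 24 h, those of Pmvk and Tm7sf2 without replicate 3 at 24 h, and that of Tm7sf2 without replicate 3 at 72 h, at adjusted p-values from 0.0514 to 0.11. The 24 h DMSO arrays enter both the 24 h drug effect and the DMSO time change, so these values are not independent. Time, cell density and the age of the medium cannot be told apart in this design.

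**Figure D1:**
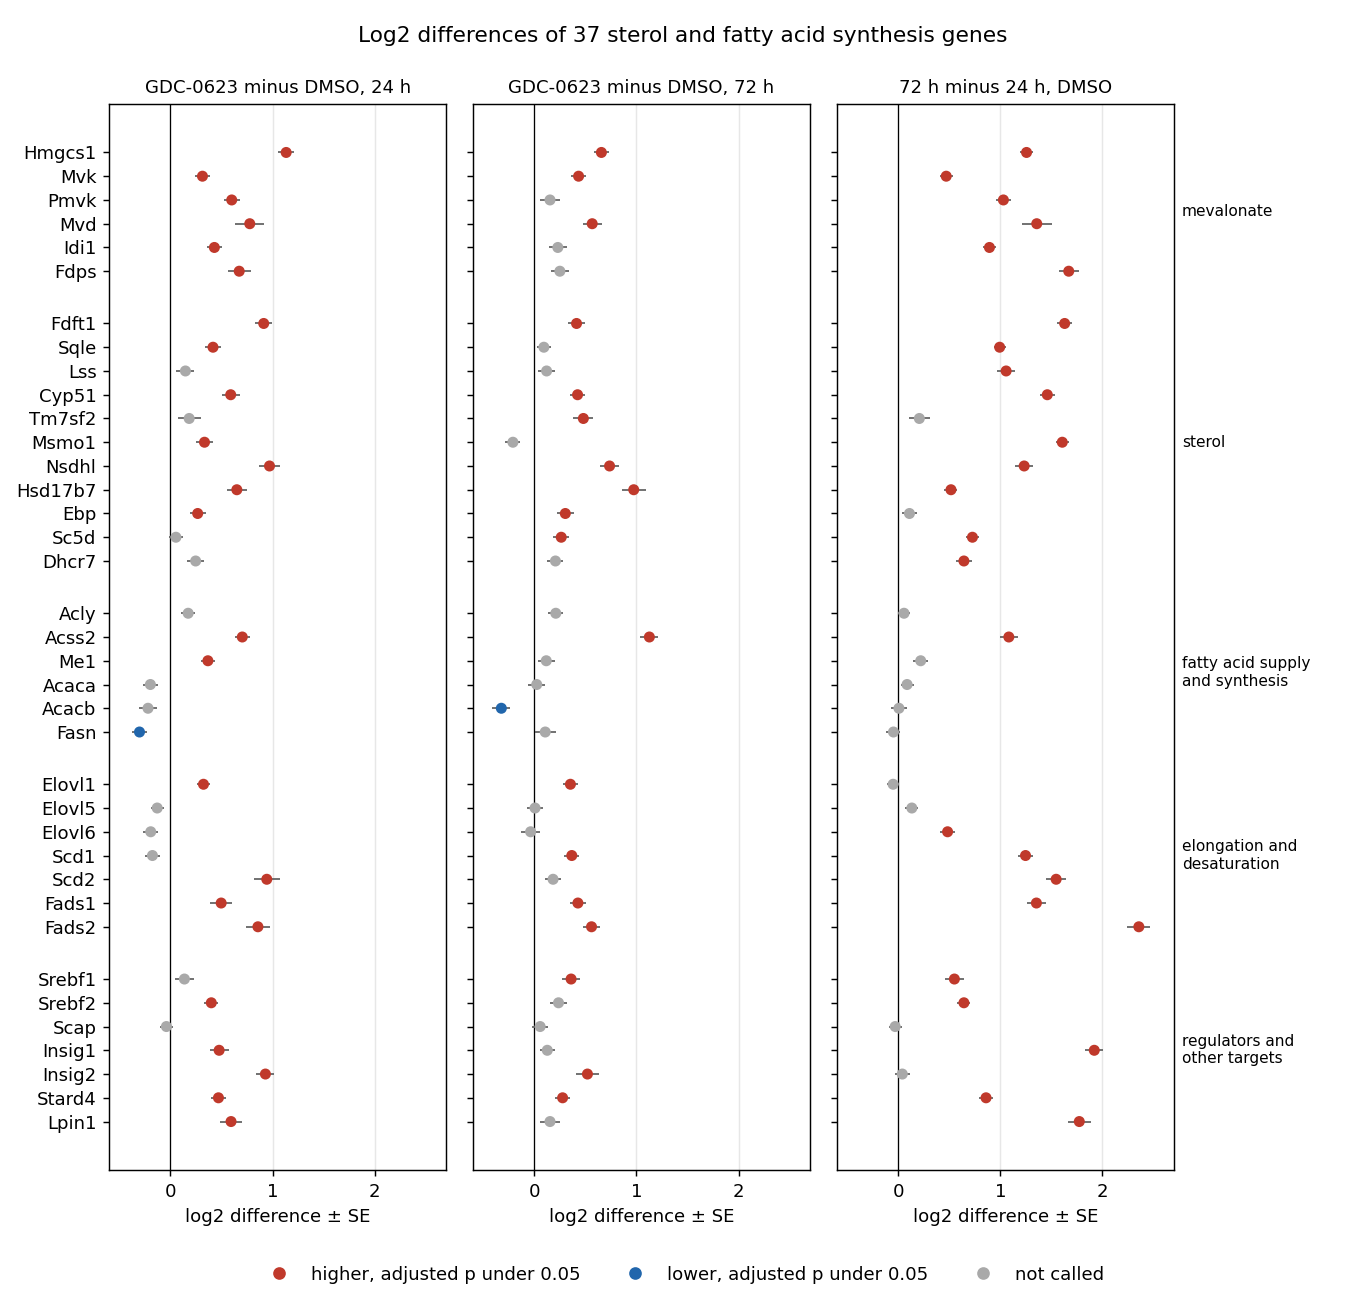
Log2 difference ± SE (x axis) of each of the 37 genes (y axis, by step) for GDC-0623 minus DMSO at 24 h, GDC-0623 minus DMSO at 72 h, and 72 h minus 24 h in DMSO, from 3 arrays per group. Red points rose and blue points fell at an adjusted p under 0.05. The mevalonate and sterol genes lie mostly to the right of 0 in all panels, up to 1.67 for Fdps over time. Acly, Acaca and Fasn lie between −0.30 and 0.21, and Fasn is called lower at 24 h.

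The mevalonate steps rose together at 24 h. All 6 measured genes rose under GDC-0623, with a median log2 difference of 0.64 and a range from 0.31 for Mvk to 1.13 for Hmgcs1. All 6 also rose from 24 h to 72 h in DMSO, with a median of 1.14. At 72 h, the inhibitor raised 3 of the 6, Hmgcs1, Mvk and Mvd, with a median of 0.34.

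Hmgcs1, which makes HMG-CoA at the entry to the pathway, read 9.36, 9.26 and 9.29 on the 24 h DMSO arrays, 10.57, 10.36 and 10.38 under GDC-0623 at 24 h, 10.53, 10.55 and 10.60 in DMSO at 72 h, and 11.20, 11.22 and 11.23 under GDC-0623 at 72 h. The inhibitor arrays lay above the DMSO arrays at each time, and the 24 h inhibitor arrays came close to the 72 h DMSO arrays. The rise was 2.19-fold at 24 h (log2 1.13 ± 0.08, adjusted p = 2.7e-05) and 1.58-fold at 72 h (0.66 ± 0.07, adjusted p = 0.000344). In DMSO it rose 2.39-fold over time (1.26 ± 0.06, adjusted p = 3.91e-05). Of the 41 windows, the Hmgcs1 promoter alone held a match to TCACNCCAC, and other forms of the sterol element were not searched. The part of this match in the rise of Hmgcs1 was not tested. Among the other 4 probe sets of this gene, 3 are bright, and they gave differences between 1.00 and 1.16 at 24 h and between 0.60 and 0.87 at 72 h.

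Mvd, the decarboxylase that yields isopentenyl diphosphate, read 6.35, 5.77 and 6.27 in DMSO and 7.06, 6.81 and 6.85 under GDC-0623 at 24 h, and 7.54, 7.33 and 7.59 against 8.00, 8.13 and 8.03 at 72 h. The groups did not overlap at either time, although replicate 2 of DMSO at 24 h was low. The rises were 0.78 ± 0.14 and 0.57 ± 0.09 on the log2 scale, with adjusted p-values of 0.00545 and 0.00257.

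Fdps makes farnesyl diphosphate, the branch point to sterols and to prenylated proteins. It read 10.24, 9.88 and 9.95 in DMSO and 10.87, 10.62 and 10.60 under GDC-0623 at 24 h, and 11.66, 11.64 and 11.78 against 11.92, 12.07 and 11.84 at 72 h. The arrays of the groups were apart at both times, narrowly at 72 h. Its 24 h rise was 0.67 ± 0.11 (adjusted p = 0.003), the 72 h difference was 0.25 ± 0.09 (adjusted p = 0.0802), and the change over time in DMSO was 1.67 ± 0.10 (adjusted p = 7.84e-05).

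The other mevalonate genes had smaller differences at 24 h. Mvk, which phosphorylates mevalonate, rose by 0.31 ± 0.08, and Pmvk, which adds a further phosphate to the product, by 0.60 ± 0.08. Idi1, which isomerises isopentenyl diphosphate, rose by 0.43 ± 0.07 at 24 h and differed by 0.23 ± 0.09 at 72 h (adjusted p = 0.0961). The Mvk call at 24 h was lost without replicate 1 or 3 of GDC-0623 or replicate 2 or 3 of DMSO, at adjusted p-values from 0.06 to 0.0732.

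Of the 11 sterol genes, 7 rose under GDC-0623 at 24 h and 7 at 72 h, with median differences of 0.33 and 0.30. In DMSO, 9 of the 11 rose over time, with a median of 0.99, and in GDC-0623 10 rose, with a median of 0.94. None fell in any of these comparisons. Fdft1, Cyp51, Nsdhl, Hsd17b7 and Ebp rose under the inhibitor at both times, Sqle and Msmo1 were called at 24 h, and Tm7sf2 and Sc5d at 72 h.

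Fdft1, the squalene synthase that commits farnesyl diphosphate to sterols, read 7.82, 7.67 and 7.74 in DMSO at 24 h, 8.79, 8.56 and 8.62 under GDC-0623 at 24 h, 9.41, 9.26 and 9.45 in DMSO at 72 h and 9.75, 9.80 and 9.81 under GDC-0623 at 72 h. The 4 groups formed 4 separate steps. It rose 1.88-fold at 24 h (0.91 ± 0.08, adjusted p = 0.00011), 1.33-fold at 72 h (0.41 ± 0.08, adjusted p = 0.0065) and 3.10-fold over time in DMSO (1.63 ± 0.08). A second bright probe set gave 0.90 and 0.39 for the inhibitor. A dim one, with a mean of 4.94, gave −0.38 at 24 h (adjusted p = 0.0435), so the probe sets of Fdft1 disagree. The mean of its 4 probe sets gave 0.37 at 24 h (adjusted p = 0.00633) and 0.175 at 72 h, where the call was lost (adjusted p = 0.131).

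Nsdhl, a dehydrogenase that helps to strip methyl groups from lanosterol, read 7.64, 7.68 and 7.42 in DMSO and 8.74, 8.42 and 8.49 under GDC-0623 at 24 h, and 8.87, 8.71 and 8.86 against 9.67, 9.55 and 9.43 at 72 h. No array of one group reached the other at either time. The rises of 0.97 ± 0.10 and 0.74 ± 0.09 had adjusted p-values of 0.00029 and 0.000649.

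Hsd17b7, the ketosterol reductase of the same step, read 7.02, 6.93 and 6.98 in DMSO and 7.84, 7.48 and 7.56 under GDC-0623 at 24 h, and 7.43, 7.55 and 7.50 against 8.75, 8.33 and 8.32 at 72 h. Replicate 1 was the highest inhibitor array at both times, and all inhibitor arrays were above DMSO. Its inhibitor effect of 0.97 ± 0.12 at 72 h, or 1.96-fold, was the largest of the 11 sterol genes at that time, and it was 0.65 ± 0.10 at 24 h (adjusted p = 0.000649 and 0.00171). The time change in DMSO was smaller in value, at 0.52 ± 0.06.

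Cyp51, the lanosterol demethylase, rose by 0.59 ± 0.09 and 0.42 ± 0.07 under the inhibitor and by 1.46 ± 0.08 over time in DMSO. A second bright probe set of Cyp51 gave 0.61 and 0.23 for the inhibitor, not called at 72 h (adjusted p = 0.0018 and 0.169). Another, with a mean of 5.43, gave 0.31 and 0.54 (adjusted p = 0.0245 and 0.00552). The 72 h call of Cyp51 held under all 15 alternatives. Sqle, the squalene epoxidase, rose by 0.42 ± 0.08 at 24 h and differed by 0.09 ± 0.07 at 72 h (adjusted p = 0.436). Lss, which closes the sterol rings, rose by 1.06 ± 0.09 over time, while its inhibitor differences of 0.15 ± 0.09 and 0.12 ± 0.08 did not pass the test, with 95% intervals from −0.05 to 0.35 and from −0.07 to 0.31. A second probe set of Lss, with a mean of 6.55, did rise at 24 h, by 0.57 (adjusted p = 0.00836), and the mean of its 3 probe sets was called too, at 0.34 (adjusted p = 0.0113), so the 24 h result for Lss depends on the probe set. Dhcr7, a reductase of the last steps, differed by 0.25 ± 0.08 at 24 h and 0.21 ± 0.08 at 72 h without passing the test.

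Ebp, a sterol isomerase, rose by 0.27 ± 0.08 and 0.30 ± 0.08 under the inhibitor, and the 24 h call was lost without any one of the 6 arrays, at adjusted p-values from 0.0605 to 0.142. At 72 h it was lost without any array other than replicate 3 of DMSO, at 0.0616 to 0.116. The Sc5d call at 72 h (0.26 ± 0.08, a sterol desaturase) was lost without any array other than replicate 1 of GDC-0623, at 0.082 to 0.135. A second probe set of Sc5d, with a mean of 6.88, rose by 0.24 at 24 h and 0.46 at 72 h (adjusted p = 0.0457 and 0.00723). A dim one, with a mean of 4.40, was not called, so the 24 h result for Sc5d depends on the probe set. Tm7sf2, a sterol reductase, was close to background, with group means from 4.63 to 5.32.

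**Figure D2:**
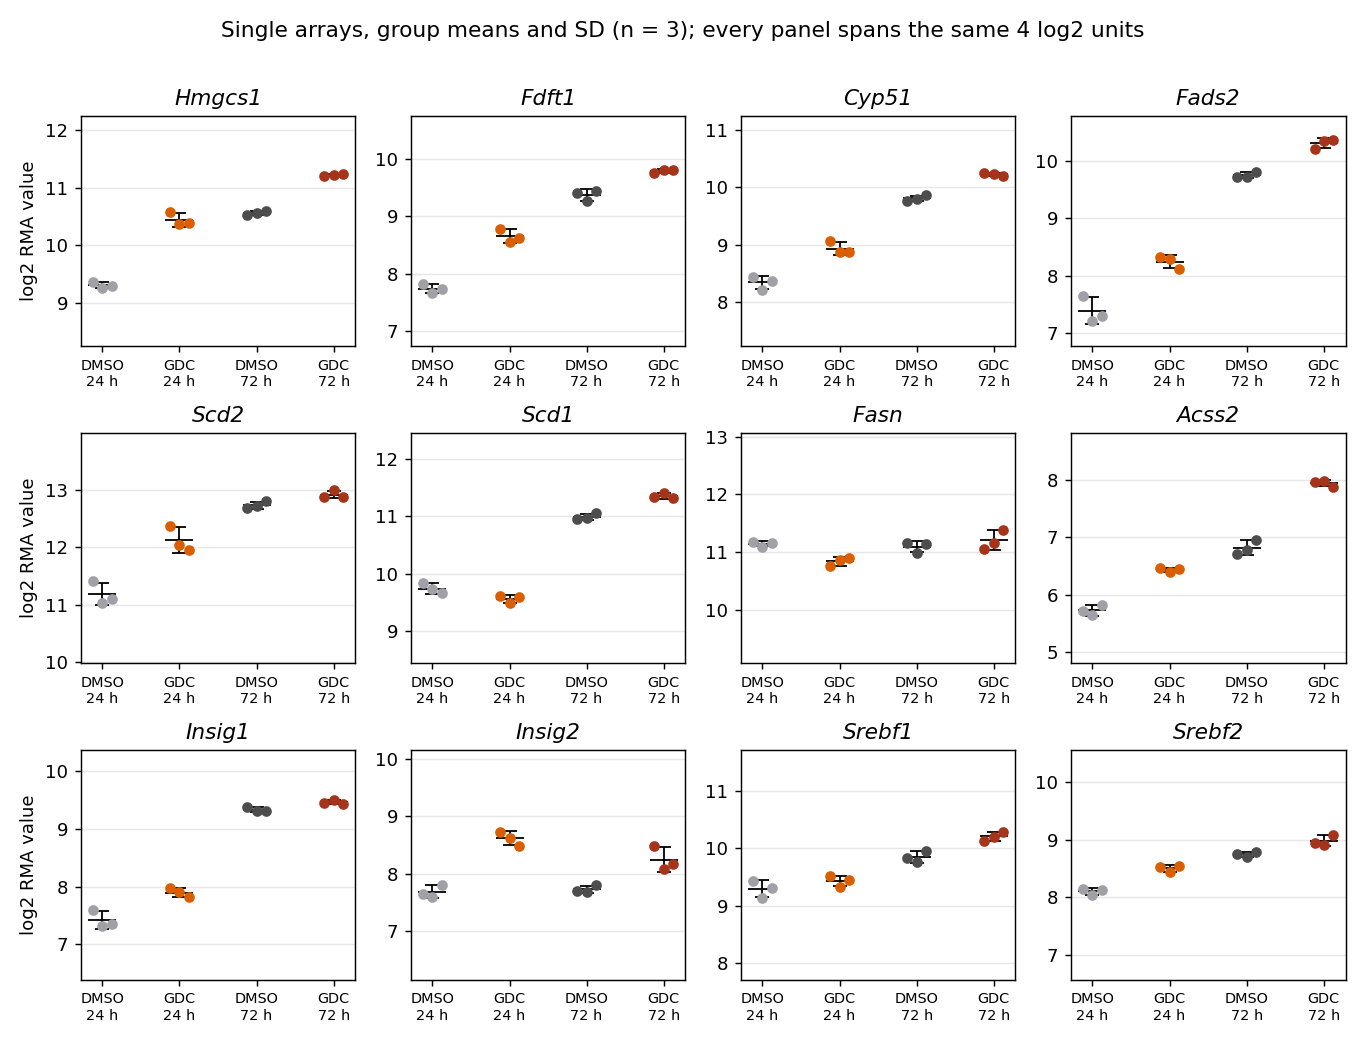
Log2 RMA values (y axis) of 12 of the 37 genes array by array, for 4 combinations of treatment and time (x axis), with group means and SD bars (n = 3); every panel spans 4 log2 units. Hmgcs1 and Fdft1 rise in steps to 11.23 and 9.81, Insig2 is high in both GDC-0623 groups, and the Fasn arrays stay between 10.75 and 11.39.

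Genes of fatty acid supply and chain synthesis gave few calls. Of the 6 genes, 2 rose and 1 fell at 24 h, with a median of −0.01, and 1 rose and 1 fell at 72 h, with a median of 0.11. The 72 h share of 16.7% in each direction is near the 13.8% and 12.4% of all genes. In DMSO 1 rose over time, with a median of 0.07. Acss2 rose in each of these comparisons.

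Acss2, which makes acetyl-CoA from acetate in the cytosol and nucleus, read 5.72, 5.64 and 5.83 in DMSO at 24 h, 6.47, 6.39 and 6.44 under GDC-0623 at 24 h, 6.71, 6.77 and 6.96 in DMSO at 72 h and 7.96, 7.98 and 7.88 under GDC-0623 at 72 h. The 4 groups did not overlap. The inhibitor rise was 1.63-fold at 24 h (0.70 ± 0.07, adjusted p = 0.000257) and 2.18-fold at 72 h (1.13 ± 0.09, adjusted p = 6.32e-05), the largest 72 h effect among the 37 genes. The difference of the effects, 0.42 ± 0.11, did not pass the test (adjusted p = 0.0748).

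Fasn, the multi-enzyme that assembles palmitate, read 11.17, 11.09 and 11.16 in DMSO and 10.75, 10.86 and 10.90 under GDC-0623 at 24 h, and 11.15, 10.99 and 11.14 against 11.05, 11.16 and 11.39 at 72 h. The inhibitor arrays were all below DMSO at 24 h and overlapped with them at 72 h. It fell by 0.30 ± 0.07 at 24 h (1.23-fold lower, adjusted p = 0.0172), and differed by 0.11 ± 0.10 at 72 h and by −0.05 ± 0.07 over time in DMSO. The 24 h call was lost without replicate 1 of GDC-0623, or replicate 1 or 3 of DMSO, at adjusted p-values from 0.0522 to 0.0633. It was also lost when arrays were aligned on their hybridization controls, at −0.15 (adjusted p = 0.485).

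Acly, which splits citrate to acetyl-CoA, differed by 0.17 ± 0.07 at 24 h and 0.21 ± 0.07 at 72 h without passing the test, with 95% intervals from 0.03 to 0.32 and from 0.05 to 0.37. A second bright probe set of Acly rose by 0.28 at 72 h (adjusted p = 0.0424), and another bright one gave 0.12 (adjusted p = 0.308). Acaca, the cytosolic acetyl-CoA carboxylase, differed by −0.20 ± 0.08 and 0.02 ± 0.08, also without passing the test. Me1, the malic enzyme that supplies NADPH, rose by 0.37 ± 0.07 at 24 h (adjusted p = 0.00731) and differed by 0.12 ± 0.08 at 72 h. Over time in DMSO it differed by 0.22 ± 0.07 (adjusted p = 0.0956). A second bright probe set of Me1 rose by 0.48 over that time (adjusted p = 0.00428), so this result depends on the probe set. Acacb, the mitochondrial carboxylase, stayed within the background range in all groups, and its fall of 0.32 ± 0.09 at 72 h was lost without any array other than replicate 3 of GDC-0623, at adjusted p-values from 0.0603 to 0.113.

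Elongases and desaturases divided by member. Of the 7 genes, 4 rose under GDC-0623 at 24 h and 4 at 72 h, with medians of 0.32 and 0.35, and 5 rose over time in DMSO, with a median of 1.25. None fell in these comparisons. The desaturases of polyunsaturated chains, Fads1 and Fads2, and the very long chain elongase Elovl1 rose at both times.

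Fads2, which starts the desaturation of linoleic acid, read 7.66, 7.22 and 7.30 in DMSO at 24 h, 8.33, 8.30 and 8.12 under GDC-0623 at 24 h, 9.72, 9.72 and 9.81 in DMSO at 72 h and 10.21, 10.35 and 10.37 under GDC-0623 at 72 h. All 4 groups were separate, and the gap between the times was wider than that between treatments. Its 5.12-fold rise over time in DMSO (2.36 ± 0.11, adjusted p = 3.41e-05) was the largest of the 37 genes, and the inhibitor raised it 1.81-fold and 1.47-fold at 24 h and 72 h. Fads1, the next desaturase of that pathway, rose by 0.50 ± 0.11 and 0.43 ± 0.08 under the inhibitor and by 1.35 ± 0.10 over time. With the mean of its probe sets, its inhibitor differences were 0.22 and 0.16 and no longer called (adjusted p = 0.0852 and 0.315).

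Elovl1 read 10.45, 10.42 and 10.48 in DMSO and 10.79, 10.75 and 10.78 under GDC-0623 at 24 h, and 10.39, 10.42 and 10.39 against 10.76, 10.75 and 10.75 at 72 h. The inhibitor separated the arrays cleanly at both times, while the DMSO arrays of both times lay together. The rises were 0.32 ± 0.06 and 0.35 ± 0.07, and the time change in DMSO was −0.05 ± 0.06 (adjusted p = 0.645). Elovl5 and Elovl6, which extend polyunsaturated and shorter saturated chains, had inhibitor differences from −0.19 to 0.01 that did not pass the test. A second bright probe set of Elovl6, with a mean of 7.80, fell by 0.48 at 24 h (adjusted p = 0.0357). Elovl6 rose over time by 0.48 ± 0.07, a call that was lost with the mean of its probe sets (0.15, adjusted p = 0.08).

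Scd1 and Scd2 encode stearoyl-CoA desaturases, which put the first double bond into saturated chains. On the probe sets used, their inhibitor effects ran in opposite orders in time. Scd2 read 11.41, 11.04 and 11.11 in DMSO and 12.38, 12.05 and 11.96 under GDC-0623 at 24 h, and 12.68, 12.72 and 12.80 against 12.88, 12.99 and 12.88 at 72 h. Its inhibitor arrays were far above DMSO at 24 h and just above at 72 h. The 24 h rise was 1.92-fold (0.94 ± 0.13, adjusted p = 0.00107) and the 72 h difference was 0.18 ± 0.08 (adjusted p = 0.142). A second bright probe set of Scd2 rose by 1.04 at 24 h and 0.26 at 72 h (adjusted p = 0.00239 and 0.0423). A dimmer one, with a mean of 7.06, gave 0.82 and 0.21 (adjusted p = 0.0174 and 0.157). The mean of its probe sets was called at 72 h (0.22, adjusted p = 0.0428). The 72 h result for Scd2 thus depends on the probe set.

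Scd1 read 9.84, 9.73 and 9.66 in DMSO and 9.61, 9.49 and 9.60 under GDC-0623 at 24 h, and 10.95, 10.97 and 11.05 against 11.34, 11.41 and 11.32 at 72 h. Its inhibitor arrays lay below DMSO at 24 h and above it at 72 h. The difference was −0.18 ± 0.08 at 24 h (adjusted p = 0.154) and 0.37 ± 0.07 at 72 h (adjusted p = 0.0082). The second probe set of Scd1 gave −0.19 at 72 h (adjusted p = 0.275), so the late rise rests on 1 of 2 probe sets. Both genes rose over time in DMSO, Scd1 by 1.25 ± 0.07 and Scd2 by 1.55 ± 0.10.

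The regulators of the pathway, and other targets grouped with them, numbered 7, of which 5 rose under GDC-0623 at 24 h and 3 at 72 h, with medians of 0.47 and 0.24. In DMSO 5 rose over time, with a median of 0.64.

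Insig1 and Insig2 both retain SCAP in the endoplasmic reticulum, and they differed in the comparisons that called them. Insig1, itself an SREBP target, read 7.60, 7.31 and 7.34 in DMSO and 7.97, 7.90 and 7.81 under GDC-0623 at 24 h, and 9.39, 9.31 and 9.31 against 9.46, 9.50 and 9.43 at 72 h. The step between the times was wider than that between the treatments, although no inhibitor array fell below a DMSO array. It rose 3.78-fold over time in DMSO (1.92 ± 0.09, adjusted p = 3.41e-05) and 1.39-fold with the inhibitor at 24 h (0.48 ± 0.09, adjusted p = 0.00678), and differed by 0.13 ± 0.07 at 72 h (adjusted p = 0.287).

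Insig2 read 7.65, 7.60 and 7.81 in DMSO and 8.73, 8.63 and 8.49 under GDC-0623 at 24 h, and 7.70, 7.68 and 7.80 against 8.49, 8.08 and 8.17 at 72 h. The inhibitor arrays were above DMSO at both times and the DMSO arrays of 24 h and 72 h overlapped. The rise was 1.91-fold at 24 h (0.93 ± 0.09, adjusted p = 0.000142) and 1.43-fold at 72 h (0.52 ± 0.11, adjusted p = 0.01), beside a time change in DMSO of 0.04 ± 0.08, with a 95% interval from −0.13 to 0.21. Its 2 other probe sets were called higher at both times too.

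Srebf2, the factor that favours sterol genes, read 8.15, 8.04 and 8.12 in DMSO and 8.52, 8.44 and 8.55 under GDC-0623 at 24 h, and 8.75, 8.70 and 8.79 against 8.95, 8.91 and 9.09 at 72 h. The groups were separate at both times. The 24 h rise was 0.40 ± 0.07 (adjusted p = 0.00395) and the 72 h difference 0.24 ± 0.08 (adjusted p = 0.0716).

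Srebf1, whose products favour fatty acid genes, read 9.43, 9.14 and 9.31 in DMSO and 9.51, 9.33 and 9.45 under GDC-0623 at 24 h, and 9.82, 9.76 and 9.95 against 10.13, 10.20 and 10.28 at 72 h. The groups overlapped at 24 h and not at 72 h. The difference was 0.14 ± 0.09 at 24 h (adjusted p = 0.361) and the rise 0.36 ± 0.08 at 72 h (adjusted p = 0.0154), a call lost without replicate 3 of GDC-0623 or replicate 1 or 2 of DMSO, at 0.0505 to 0.0679.

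Scap, the escort protein, showed no call in any comparison. It read 8.93, 8.94 and 9.00 in DMSO and 8.92, 8.89 and 8.94 under GDC-0623 at 24 h, and 8.98, 8.85 and 8.95 against 8.97, 8.98 and 9.00 at 72 h. All 12 arrays lay close together, with inhibitor differences of −0.04 ± 0.06 and 0.06 ± 0.07, whose 95% intervals ran from −0.19 to 0.11 and from −0.11 to 0.23. Stard4, a sterol carrier, rose by 0.47 ± 0.07 and 0.28 ± 0.08. The 72 h call was lost without any array other than replicate 1 of GDC-0623, at adjusted p-values from 0.059 to 0.112. It was also lost with the mean of the probe sets (0.13, adjusted p = 0.371). The 24 h call held under all 15 alternatives, but the other probe sets of Stard4 gave 0.06 and 0.17 at 24 h (adjusted p = 0.709 and 0.183). Lpin1, a phosphatidate phosphatase of glycerolipid synthesis, rose by 0.59 ± 0.11 at 24 h and 1.77 ± 0.11 over time in DMSO, and differed by 0.15 ± 0.10 at 72 h.

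**Figure D3:**
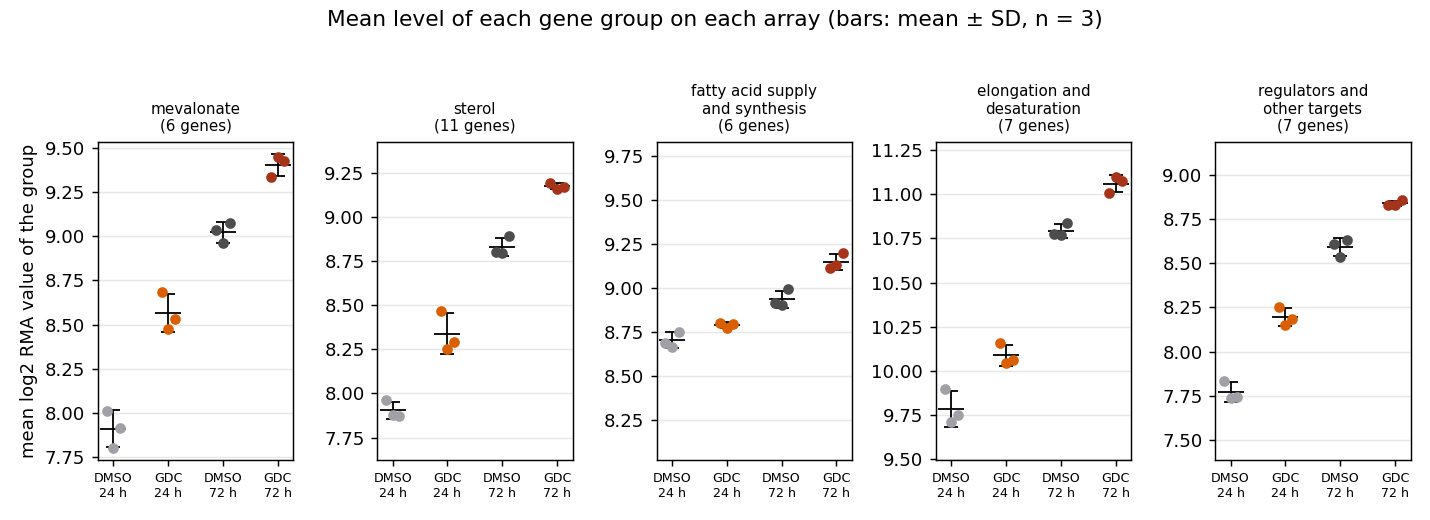
Mean log2 RMA value (y axis) of the genes of a pathway step, array by array, for 4 combinations of treatment and time (x axis), with group means and SD (n = 3). The mevalonate mean climbs from 7.91 in DMSO at 24 h to 9.40 under GDC-0623 at 72 h, and the mean of fatty acid supply and synthesis from 8.70 to 9.15. Within the latter step Acss2 rose by far the most between these groups, from 5.73 to 7.94, and Acacb fell from 4.91 to 4.59.

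The effect of GDC-0623 was then compared between the times, in comparisons that share no arrays. Of the 37 genes, 14 rose at both times, 10 were called higher at 24 h and not at 72 h, and 4 at 72 h and not at 24 h. Without replicate 1 of GDC-0623 at 72 h these counts were 13, 11 and 4. Of all genes, 13.3% were higher at 24 h and 13.8% at 72 h. Their share in the joint classes was not counted, so these counts do not set the 37 genes apart. A direct test over the 12 arrays called the effect larger at 72 h for 1 gene and smaller for 4, against 1.62% and 1.46% of all genes. The 4 were Hmgcs1, Fdft1, Msmo1 and Scd2, and the 1 was Scd1. Without replicate 1 of GDC-0623 at 72 h the counts were again 1 and 4, with Insig2 in place of Fdft1. For the other 32, a call at only one of the times is not shown to be a difference, and the median difference of the 37 was −0.10.

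Msmo1, the methylsterol oxygenase, read 8.97, 8.87 and 8.86 in DMSO and 9.40, 9.16 and 9.14 under GDC-0623 at 24 h, and 10.54, 10.47 and 10.51 against 10.27, 10.35 and 10.27 at 72 h. The inhibitor arrays were above DMSO at 24 h and below it at 72 h. The 24 h rise was 0.33 ± 0.09 (adjusted p = 0.0267), the 72 h difference −0.21 ± 0.07 (adjusted p = 0.0782), and the difference of the effects −0.54 ± 0.11 (adjusted p = 0.0185). The 24 h call was lost without replicate 1 of GDC-0623 or replicate 2 or 3 of DMSO, at 0.0653 to 0.0867, and with the mean of its probe sets (0.16, adjusted p = 0.092).

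The difference of the effects was −0.48 ± 0.10 for Hmgcs1 (adjusted p = 0.0232), −0.50 ± 0.11 for Fdft1 (adjusted p = 0.034), −0.76 ± 0.16 for Scd2 (adjusted p = 0.0232) and 0.54 ± 0.10 for Scd1 (adjusted p = 0.0106). Without replicate 2 of DMSO at 24 h, none of the 4 negative differences passed the test, with adjusted p-values of 0.0685 for Hmgcs1, 0.0933 for Fdft1, 0.054 for Msmo1 and 0.0679 for Scd2. The same held without replicate 3 of DMSO at 24 h, at 0.0625, 0.0798, 0.0565 and 0.0669. Leaving out replicate 1, 2 or 3 of DMSO at 72 h ended 2, 2 and 3 of the 4 calls. The Fdft1 call was also lost without replicate 1 or 3 of GDC-0623 at either time, and over all these arrays the adjusted p-values of the lost calls ran from 0.0504 to 0.0933. For Scd1 no single array ended the call, but alignment on the hybridization controls did (0.40, adjusted p = 0.142). The mean of a gene's probe sets ended the calls of Scd1 (0.19, adjusted p = 0.342), Hmgcs1 (−0.28, adjusted p = 0.124), Fdft1 (−0.19, adjusted p = 0.392) and Scd2 (−0.72, adjusted p = 0.0626), and kept that of Msmo1 at −0.32 (adjusted p = 0.0436). The probe set of largest variance ended those of Hmgcs1 (−0.29, adjusted p = 0.311) and Scd2 (−0.78, adjusted p = 0.0662). The call of Fdft1 was lost as well when quantile normalisation was repeated (−0.46, adjusted p = 0.0616).

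**Figure D4:**
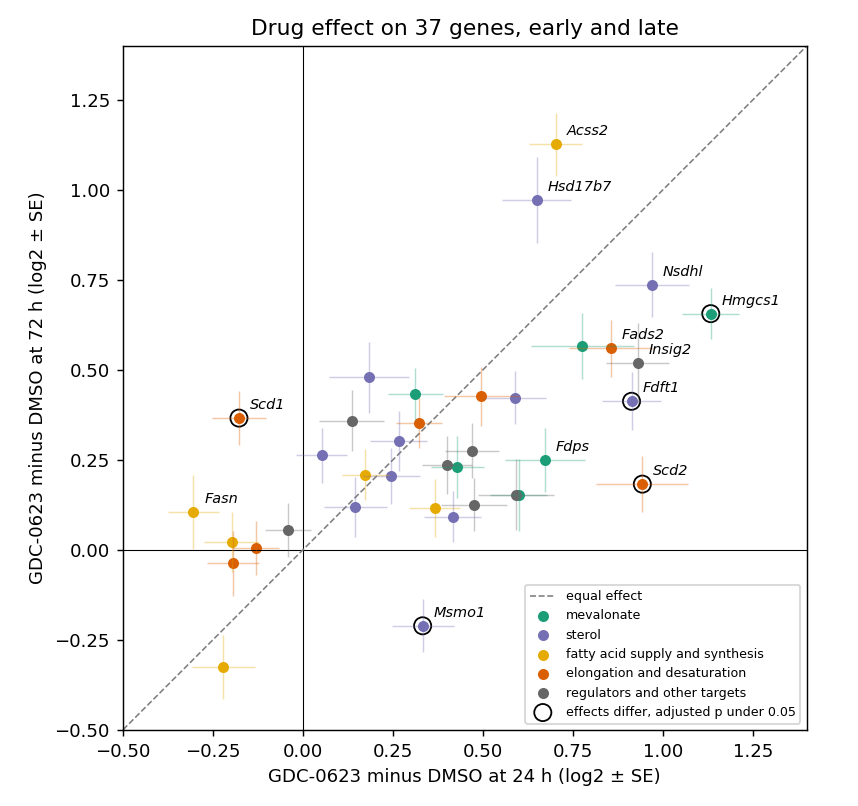
Effect of GDC-0623 on each of the 37 genes at 24 h (x axis) and 72 h (y axis), as log2 difference ± SE, with the line of equal effect and circles around the 5 genes whose effects differed at an adjusted p under 0.05. Hmgcs1, Fdft1, Msmo1 and Scd2 lie below the line, by 0.48 to 0.76, and Scd1 lies above it.

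Neighbouring genes of lipid metabolism were counted from lists of non-members, beside 13.3% of all genes higher and 8.23% lower at 24 h, and 13.8% and 12.4% at 72 h. Of 4 genes of NADPH and citrate supply, 2 rose with GDC-0623 at 24 h and 3 at 72 h, with none called lower. Idh1, the cytosolic isocitrate dehydrogenase, rose by 1.69 ± 0.12 and 0.98 ± 0.08 (adjusted p = 2.5e-05 and 9.51e-05), and Slc25a1, the mitochondrial citrate carrier, by 0.59 ± 0.09 and 0.31 ± 0.08. Pgd, a dehydrogenase of the pentose phosphate pathway, was not called at either time, with differences of 0.12 ± 0.07 and −0.23 ± 0.07 (adjusted p = 0.278 and 0.0589). Of 8 genes of SREBP processing, 1 rose and 1 fell at 24 h and 3 rose and 2 fell at 72 h, so the 24 h share of 12.5% higher is near that of all genes. Sec23a, a coat protein of vesicles that leave the endoplasmic reticulum, rose by 0.63 ± 0.07 at both times. Mbtps2, the protease that makes the second cut in SREBPs, fell by 0.67 ± 0.08 at 72 h (adjusted p = 0.000721). Of 9 other sterol genes, 3 rose and 2 fell at each time, among them the lysosomal sterol carrier Npc2, up by 0.39 ± 0.07 and 0.68 ± 0.09, and Tmem97, which binds sterols, down by 0.47 ± 0.09 and 0.42 ± 0.09.

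Among 21 other genes of fatty acid and glycerolipid synthesis, 2 rose and 2 fell at 24 h and 3 rose and 8 fell at 72 h. The share higher was 9.52% at 24 h, below that of all genes, and 14.3% at 72 h, near it. The 8 of 21 that fell at 72 h stand beside 12.4% of all genes lower, with a list median of −0.22 and of −0.03 over all genes. Without replicate 1 of GDC-0623 at 72 h, 2 rose and 4 fell at 72 h, against 11.5% and 10% of all genes, with a list median of −0.18. Tecr, the reductase that completes each elongation cycle, rose by 0.49 ± 0.08 and 0.44 ± 0.08, and Elovl4 fell by 0.51 ± 0.11 at 72 h. The fatty acid oxidation list had 7 of 12 higher at 24 h and 5 of 12 at 72 h, with none lower. Cpt1a, the gatekeeper of mitochondrial fatty acid import, rose by 0.88 ± 0.11 and 1.33 ± 0.13 (adjusted p = 0.000841 and 0.000202). With time in DMSO 1 of the 12 was higher and 1 lower, with a median of −0.07, and the 8.33% higher is near the 8.41% of all genes. Of 6 genes of the sterol-sensing receptor LXR and its targets, 3 rose at each time and 1 fell at 72 h. Those that rose were Mylip, a ubiquitin ligase, by 1.09 ± 0.10 and 1.23 ± 0.13, the sterol exporter Abca1 by 0.45 ± 0.11 and 0.99 ± 0.17, and Lpcat3, which remodels phospholipids, by 0.53 ± 0.07 and 0.34 ± 0.07. The gene that fell was the receptor Nr1h3, in the background range with a mean of 4.15, by 0.35 ± 0.09 (adjusted p = 0.0286). Without replicate 1 of GDC-0623 at 72 h, 4 of the 6 rose and none fell, and the 72 h counts of the other lists of non-members did not change apart from the fatty acid and glycerolipid list.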

How the data were processed

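The authors deposited log2 values made by RMA, the robust multichip average, per the labels. RMA removes background and quantile normalises the arrays, so shifts shared by most genes are lost, and it gives no detection call. Array medians lay between 4.63 and 4.70, and 3 arrays per group limit the precision. The 64 control probe sets were left out, which left 45037. Gene names came from the platform annotation (34945 probe sets with 1 symbol, 932 with several, 9160 with none), and a gene was represented by its single-symbol probe set with the highest mean over the 12 arrays. Several probe sets were present for 28 of the 37 genes. The probe sets of one gene can differ, and levels were not compared between genes.

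Groups were compared on their 6 arrays with limma 3.58.1 under R 4.3.3 (empirical Bayes, two-sided; the study's methods also name an empirical Bayes test between 2 groups), with Benjamini-Hochberg adjustment over all 45037 probe sets and a threshold of 0.05. The difference of the effects was tested on 12 arrays. Errors are SEs of the fit. Members and lists were chosen with earlier results of these data known. Values per array were given for the regulators and for about 3 called genes per group with the largest differences. Elovl1, Pgd and Nr1h3 were added after their values were seen. Up to 3 called non-members per list were named, with a mean of at least 6. Promoters came from RefSeq. Figures were drawn with matplotlib 3.10.9.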

Additional observations from a re-analysis of the deposited data

Results flagged for a closer look

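The inhibitor effect differed between 24 h and 72 h for 5 genes in the direct test on 12 arrays. The 72 h effect minus the 24 h effect was −0.48 for Hmgcs1, −0.50 for Fdft1, −0.54 for Msmo1, −0.76 for Scd2 and 0.54 for Scd1 on the log2 scale. For Msmo1 and Scd1 the arrays of the treatments did not overlap at either time and lay in opposite orders at 24 h and 72 h. The Msmo1 difference at 72 h (adjusted p = 0.0782) and the Scd1 difference at 24 h (adjusted p = 0.154) did not pass the test. The second probe set of Scd1 gave −0.02 at 24 h and −0.19 at 72 h. Its difference of the effects was −0.17 (adjusted p = 0.624), so the Scd1 result rests on the probe set used.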

How the results depend on the processing

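Of the calls among the 37 genes, 20 of 25 for the 24 h effect, 11 of 19 for the 72 h effect, 25 of 26 for time in DMSO and 24 of 27 for time in GDC-0623 held under every alternative, and 0 of 5 differences of the effects. Genes higher at 24 h numbered 24 in the main fit, 21 to 23 without 1 array and 22 to 26 under the other settings. At 72 h, 18 were higher in the main fit, 14 to 17 without 1 array and 16 to 23 under the other settings. Genes lower at 24 h numbered 3 with the filter on dim probe sets or a trended and robust prior, 0 with arrays aligned on hybridization controls, and 0 to 1 without 1 array. At 72 h they numbered 0 with that alignment, 2 with the trended prior or with the probe set of largest variance, and 0 to 1 without 1 array. Over time in GDC-0623 the count of lower genes was 1 with a fit over 12 arrays, array weights or the alignment, and 0 to 1 without 1 array. For the difference of the effects, larger effects numbered 2 with the filter or the trended prior, 0 with the alignment or the mean of the probe sets, and 1 to 2 without 1 array. Smaller effects numbered 1 with that mean, 2 with the probe set of largest variance and 0 to 4 without 1 array. Acaca at 72 h turned to −0.39 with a dim probe set of larger variance. The causes were not tested.

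The alignment moved the median of all genes by 0.15 at 24 h, −0.11 over time in GDC-0623 and −0.14 for the difference of the effects. The share of called genes that were higher went from 61.8% to 89.1% at 24 h, 62.1% to 80.6% over time in DMSO, 65.1% to 33.3% over time in GDC-0623, and 52.6% to 35.4% for the difference. Among the 37 genes, 26 were then higher at 24 h and 16 at 72 h, against 3407 and 2349 of all 18193 genes. In the main fit 2421 and 2519 of all genes were higher.

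Replicate numbers are shared between the groups. Arrays with the same number deviated together, with r from 0.125 to 0.555 over 16451 brighter probe sets. Over all 45037 probe sets r was weaker, from 0.0135 to 0.289. The labels name no shared batch. With the number as a block, 24 of the 37 genes were higher and 1 lower at 24 h, 17 and 1 at 72 h, 26 and 0 over time in DMSO, 29 and 1 over time in GDC-0623, and 1 and 4 for the difference. Of all 18193 genes, 2259 were then higher and 1345 lower at 24 h, and 2446 and 2198 at 72 h. The counts of all genes were 1388 and 703 over time in DMSO, 1278 and 923 over time in GDC-0623, and 361 and 349 for the difference.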
